A study of Mus musculus with 6 samples.

Results

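The 10 genes described here, of the AP-1 transcription factor group, were measured in LD-1, a mouse cholangiocarcinoma (bile duct cancer) cell line. They were the Fos genes Fos, Fosb, Fosl1 and Fosl2, the Jun genes Jun, Junb and Jund, the related factor gene Atf3, and the small Maf genes Maff and Mafk. They were taken by symbol from the deposited expression table, which held all 10 among its 28212 genes. Poly(A) RNA was sequenced from 3 libraries of LD-1 cells stimulated with HGF (hepatocyte growth factor), which binds and activates the kinase receptor Met, and from 3 control libraries of the same line. The labels state no genotype change, dose of HGF or time of exposure, and besides the cell line they list mouse bile duct cancer tissue as the source, while the extraction protocol speaks of adipose RNA. The stated aim was to see how HGF alters expression in these cells.

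AP-1 is a dimer of basic leucine zipper (bZIP) proteins that binds short DNA elements in promoters and enhancers. Jun proteins pair with each other or with Fos proteins, whereas Fos proteins need a partner such as Jun to bind DNA. Fos, Jun and their relatives are immediate-early genes of growth factor signalling, where Fos RNA is known to rise briefly and Fosl1, which encodes FRA-1, to stay high while ERK signalling lasts. Small Maf proteins have no activation domain of their own and pair with one another or with CNC factors such as NRF2 and with the BACH repressors.

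Total counts ranged from 57073866 to 66302502 per library. Per library, 1108.5 genes on average had exactly 4 counts, more than had 3 (527.3) or 5 (306.0), so counts may not stand for 1 read pair each, and how the authors made them is not given in the sources used here. The bile duct keratin genes Krt8, Krt18 and Krt19 were abundant in every library, whereas Krt7 and Cldn4 were at or near 0, with Cldn4 listed at 0 in Control 3. The summed level of the 10 bile duct markers was 1410 to 1420 FPKM (fragments scaled by transcript length and sequencing depth) with HGF and 753 to 784 FPKM in controls. Control 3 stood apart from the other libraries: the summed level of 10 skeletal muscle markers was 2.23 to 3.81 FPKM in the HGF libraries, 2.89 and 2.48 FPKM in Controls 1 and 2, and 217 FPKM in Control 3. The 10 macrophage markers summed to 63.8 to 67.8 FPKM with HGF, and to 40.2, 44.3 and, in Control 3, 119 FPKM in controls. Hepatocyte markers summed to 12.1 to 19.8 FPKM with HGF and 2.64 to 3.62 FPKM in controls (8 of 10 called higher). Fibroblast markers summed to 151 to 157 FPKM with HGF and 86.8 to 96.0 FPKM in controls (6 of 8 tested called higher). Most of the fibroblast sum was 1 gene, Pdpn, with 106 to 108 FPKM with HGF and 74.1 to 83.2 FPKM in controls. The part of such RNA in the values below was not tested; the members are also given without Control 3. In bulk RNA, fewer cells of a type and less RNA per cell cannot be told apart. Separate cultures are not stated in the labels, so the spread behind each p-value is that of these libraries and could be technical.

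With HGF, the AP-1 genes split: Fosl1, Fosl2, Jun, Maff and Mafk were higher, Fos was lower, and Fosb, Junb, Jund and Atf3 did not pass the test. Fosl1 had the largest change, 2.76-fold higher (log2 fold change 1.47 ± 0.11 SE, adjusted p = 2.97e-05, edgeR quasi-likelihood test), and Fos came to 0.505 of its control level (log2 -0.98 ± 0.05, adjusted p = 5.20e-06). All 10 genes passed the low-count filter, and 5 were called higher and 1 lower, with counts of 487 to 23253 in a library. Over all 17322 tested genes, 38.5% passed the same threshold (an adjusted p of 0.05), 19.1% higher and 19.3% lower. The median log2 fold change was 0.15 over the 10 genes and -0.02 over all tested genes. A change of at least 2-fold was called for 1 of the 10, Fosl1, and for 5.77% of all tested genes. Groups did not overlap in TMM-scaled CPM (counts scaled to a common library size) in 8 of the 10, and in 51.4% of all tested genes. Without Control 3 the log2 fold changes of the 6 called genes were 1.49 (Fosl1), 0.85 (Jun), 0.81 (Maff), 0.49 (Fosl2), 0.21 (Mafk) and -0.96 (Fos), with adjusted p of 3.76e-05 to 0.0342. Those of the other 4 were 0.10 (Fosb), -0.01 (Junb), 0.10 (Jund) and -0.20 (Atf3), again with no call.

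**Figure D1:**
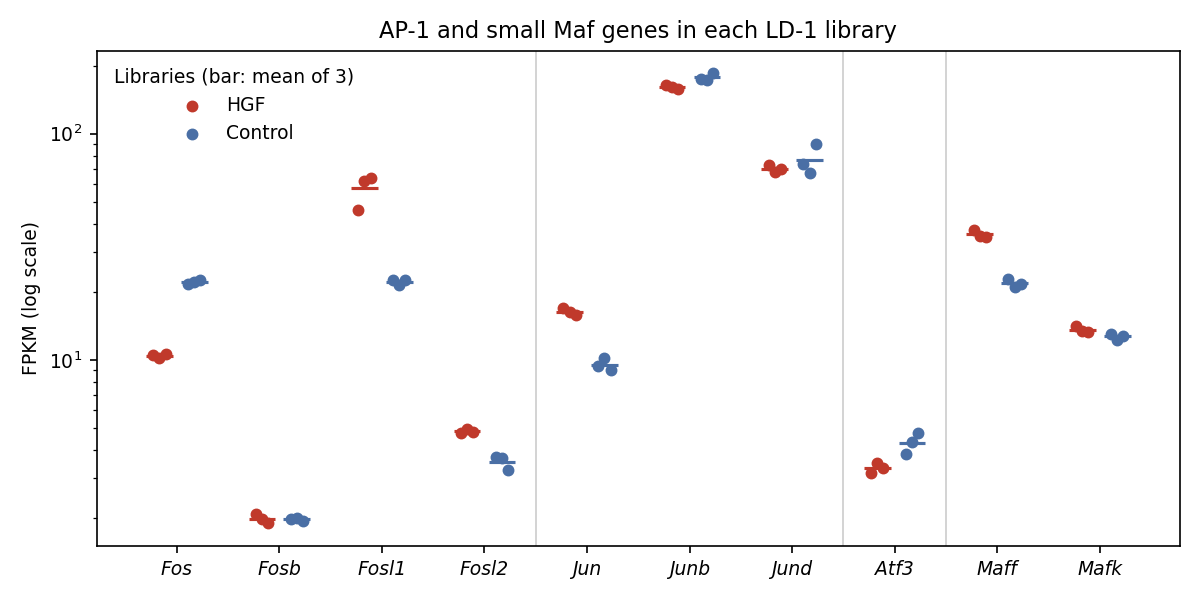
FPKM (log axis) of the 10 genes in each library, HGF libraries in red to the left of control libraries in blue, with a bar at the mean of 3. Fosl1, Jun, Maff and Fosl2 lie higher with HGF, Fos lies lower, and Junb stays the most abundant in both groups.

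**Figure D2:**
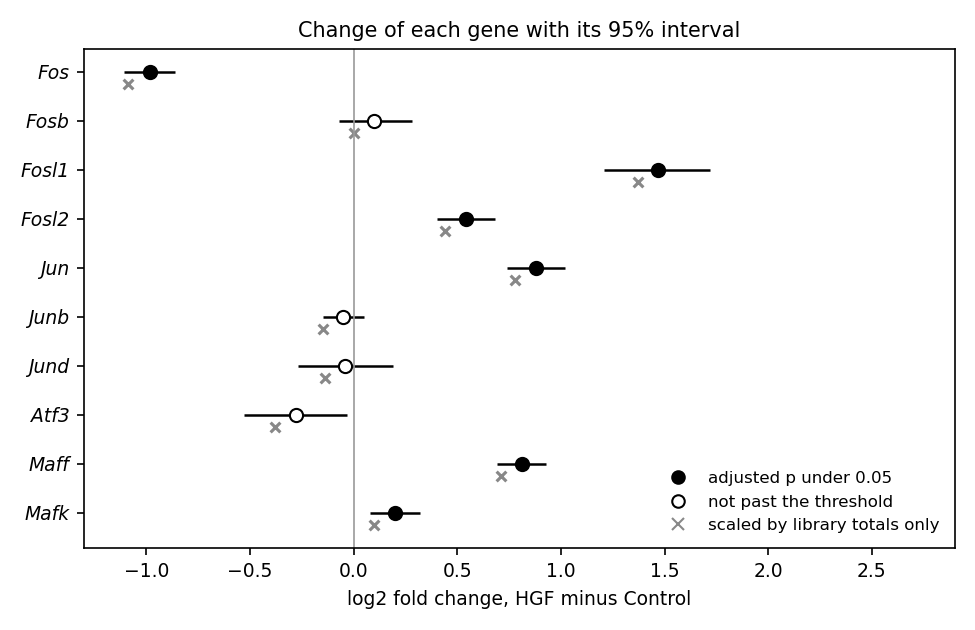
Log2 fold change of each gene, HGF minus control (x axis), with its 95% interval from the fit; filled points passed adjusted p 0.05 and crosses show the value when libraries are scaled by their totals alone. The called values run from -0.98 for Fos to 1.47 for Fosl1.

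The order of the levels within a library can be read from FPKM, which divides by transcript length. With HGF the order of mean FPKM was Junb, Jund, Fosl1, Maff, Jun, Mafk, Fos, Fosl2, Atf3 and Fosb, and no neighbouring pair in it overlapped between libraries. In controls it was Junb, Jund, Fosl1, Fos, Maff, Mafk, Jun, Atf3, Fosl2 and Fosb. There the ranges of Fosl1 and Fos overlapped, as did those of Fos and Maff, so the order of these 3 was not separated by the spread. Fos was thus the seventh of 10 with HGF and the fourth in controls.

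The promoters of Fos, which fell, and of Jun and Maff, which rose, are shown because these genes moved in opposite directions and their windows hold matches to AP-1 or CRE elements. Each sequence is the 250 bases before the RefSeq start (GRCm38.p6), 5′ to 3′ on the gene's strand, with matches to the searched AP-1, CRE and TATA motifs in capitals. Fos lies at chr12:85473640-85473889 on the plus strand, Jun at chr4:95052223-95052472 on the minus strand, and Maff, at the second of its 3 listed starts, at chr15:79347270-79347519 on the plus strand.
Fos: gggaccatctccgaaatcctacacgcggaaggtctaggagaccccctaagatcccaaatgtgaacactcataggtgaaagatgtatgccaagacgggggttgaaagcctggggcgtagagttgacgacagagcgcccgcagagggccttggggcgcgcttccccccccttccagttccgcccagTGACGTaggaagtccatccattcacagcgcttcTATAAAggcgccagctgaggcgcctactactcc
Jun: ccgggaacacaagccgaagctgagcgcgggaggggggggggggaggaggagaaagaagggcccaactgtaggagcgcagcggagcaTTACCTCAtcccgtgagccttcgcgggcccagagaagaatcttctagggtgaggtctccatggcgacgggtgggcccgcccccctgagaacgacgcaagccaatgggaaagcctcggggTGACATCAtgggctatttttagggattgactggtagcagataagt
Maff: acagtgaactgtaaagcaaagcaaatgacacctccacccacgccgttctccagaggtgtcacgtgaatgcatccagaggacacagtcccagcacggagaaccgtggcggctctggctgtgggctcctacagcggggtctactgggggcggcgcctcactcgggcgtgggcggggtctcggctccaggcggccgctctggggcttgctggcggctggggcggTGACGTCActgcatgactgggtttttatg
In Fos the capitals are the short CRE core TGACGT at -66 to -61 and the TATA box TATAAA at -33 to -28. In Jun they are TTACCTCA at -164 to -157 and TGACATCA at -45 to -38, variants of the AP-1 and CRE elements. In Maff they are the full CRE TGACGTCA at -29 to -22.

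Motifs were searched on both strands of these 250-base windows. RefSeq listed 11 starts for 9 of the 10 genes, with none used here for Fosl1. A RefSeq start need not be the start of the deposited gene. The Jund window ended at 70697738 on chromosome 8, and the deposited gene starts at 70698949. Those of Atf3 and Fosl2 lay inside the deposited gene, as did those at the later starts of Maff, among them the one shown. Those of Fosb and Mafk ran across the start of the deposited gene. The classical AP-1 element TGACTCA was in 0 of the 11 windows and in 4.46% of 32851 mouse promoter windows. TGACGT, which the full CRE TGACGTCA contains, was in 3 of the 11 windows (Atf3, Fos and Maff) and in 6.47% of all windows. TGACGTCA itself was in 1 of the 11 (Maff) and in 1.55% of all. TGACATCA was in 2 of the 11, for Jun and for another start of Maff (2.93% of all windows), and TTACCTCA in 1, for Jun (0.728%). TGACNNNGC, the core of the element bound by small Maf and CNC dimers, was in 2 of the 11, for Maff and Mafk (10.2% of all windows). TATAAA was in 1, for Fos (12.4%), and the CArG box, the element of serum response factor, in 0 (1.47%). The GC box GGGCGG was in 8 of 11 windows and in 32.7% of all. The GC content of the 11 windows ran from 47.6% (Jund) to 68.8% (Fosb). All but those of Jund and a start of Maff (48.0%) lay above the median of all windows, 52.4%. The part of GC content in the share with a GC box was not tested. A match is a description of letters in these windows and shows no binding. Elements farther upstream, CArG boxes among them, lay outside the search, so a missing match does not show that a gene lacks the element.

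Fosl1 encodes FRA-1, a Fos protein without the strong activation domain of Fos that is known for its part in the motility of carcinoma cells. Its FPKM was 46.2, 61.9 and 63.8 in the HGF libraries, against 22.5, 21.4 and 22.6 in the control libraries. All 3 HGF libraries lay above all controls, and HGF 1 was the lowest of them, 30.7% of the group mean separating the lowest and highest HGF library. Fosl1 (ENSMUSG00000024912, chromosome 19, 5447547 to 5455946, plus strand) overlaps 2767 bases of Ccdc85b on the opposite strand in GENCODE M21, and whether the counting used strand is not given in the sources used here. Ccdc85b had 5436, 4274 and 4376 counts with HGF, against 4966, 5136 and 5076 in controls. HGF 1 thus had the lowest Fosl1 count of the HGF libraries, 6728 against 9030 and 9471, and the highest Ccdc85b count. Ccdc85b as a whole gave no call (log2 -0.06 ± 0.10, adjusted p = 0.697).

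The 2 genes together came to 195, 214 and 218 TMM-scaled CPM in the HGF libraries, against 122, 121 and 136 in controls. The pair was 1.65-fold higher with HGF (mean log2 difference 0.72), with no overlap of the groups. An exact two-sided permutation test over libraries gave p = 0.10, the smallest that 3 against 3 allows. Without HGF 1 the fitted log2 fold change of Fosl1 was 1.60, and leaving out each library in turn gave 1.40 to 1.60. How reads of the shared stretch were divided between the 2 genes was not tested.

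**Figure D3:**
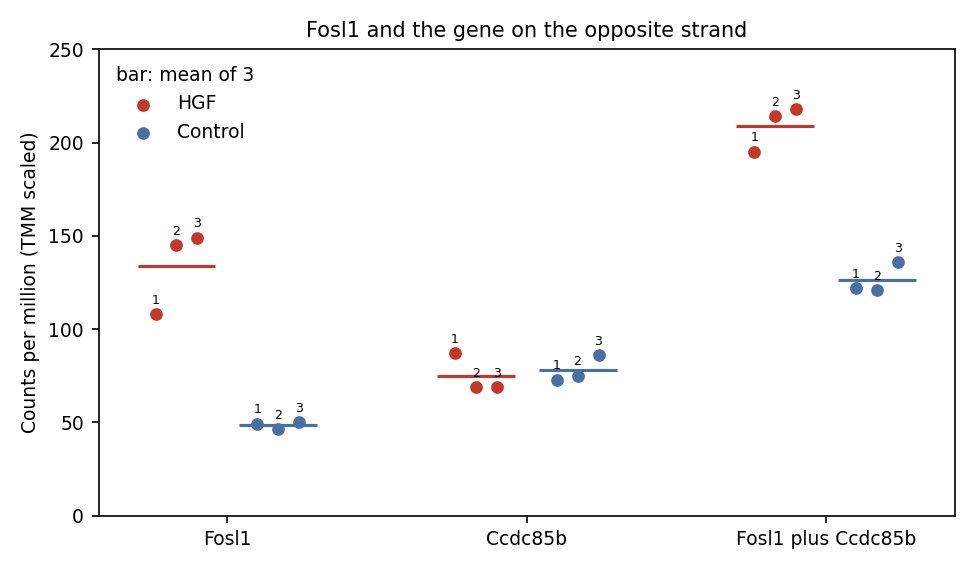
TMM-scaled CPM (y axis) of Fosl1, of Ccdc85b on the opposite strand and of their sum, in HGF libraries (red) and control libraries (blue), numbered by replicate, with a bar at the mean. HGF 1 is the lowest HGF library for Fosl1 at 108 and the highest for Ccdc85b at 87.1; the sums do not overlap between groups.

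Fos, the founding member and the cellular form of a viral oncogene, had 10.5, 10.2 and 10.6 FPKM with HGF, against 21.7, 22.1 and 22.5 FPKM in controls. The groups were far apart relative to their spread, with 3.47% of the mean between the lowest and highest HGF library and 3.78% between those of the controls. Fos (ENSMUSG00000021250, chromosome 12, 85473890 to 85477273) overlaps no other annotated gene. Its fall kept its call in all 15 alternative analyses, at -1.09 to -0.96 on the log2 scale.

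Fosl2 encodes FRA-2, the other Fos protein without a strong activation domain. Its FPKM was 4.76, 4.97 and 4.80 with HGF, against 3.74, 3.67 and 3.25 in controls, 1.46-fold higher in the fit (log2 0.54 ± 0.06, adjusted p = 2.50e-04). The groups did not overlap. Fosb, which also gives a shorter dominant-negative form by splicing, was the lowest of the 10 in both groups, with 2.09, 1.98 and 1.90 FPKM with HGF and 1.98, 2.0 and 1.95 in controls. Its log2 fold change was 0.10, with a 95% interval of -0.07 to 0.28 (adjusted p = 0.323), so a rise of up to 0.28 or a small fall remain within the error. The Fosb groups overlapped in FPKM but not in TMM-scaled CPM, at 15.0, 14.3 and 13.7 with HGF and 13.3 in each control.

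Because members moved in opposite directions, the make-up of the Fos family RNA differed between the groups. Fosl1 made up 72.7%, 78.3% and 78.7% of the summed Fos-family FPKM with HGF, against 45.1%, 43.6% and 44.9% in controls. Fos made up 16.6%, 12.9% and 13.1% with HGF, against 43.5%, 44.9% and 44.8% in controls. With HGF the FPKM of Fosl1 was thus several times that of Fos, and in controls the 2 genes were at near equal FPKM. The log2 ratio of Fosl1 to Fos was 2.44 ± 0.27 with HGF and 0.00 ± 0.05 in controls (SD, n = 3 each; exact two-sided permutation p = 0.10, the smallest this design allows). The summed Fos-family level was 74.6 ± 9.59 FPKM with HGF and 49.8 ± 0.599 FPKM in controls. Shares within a library do not depend on how libraries are scaled, but that of Fosl1 carries the overlap with Ccdc85b.

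**Figure D4:**
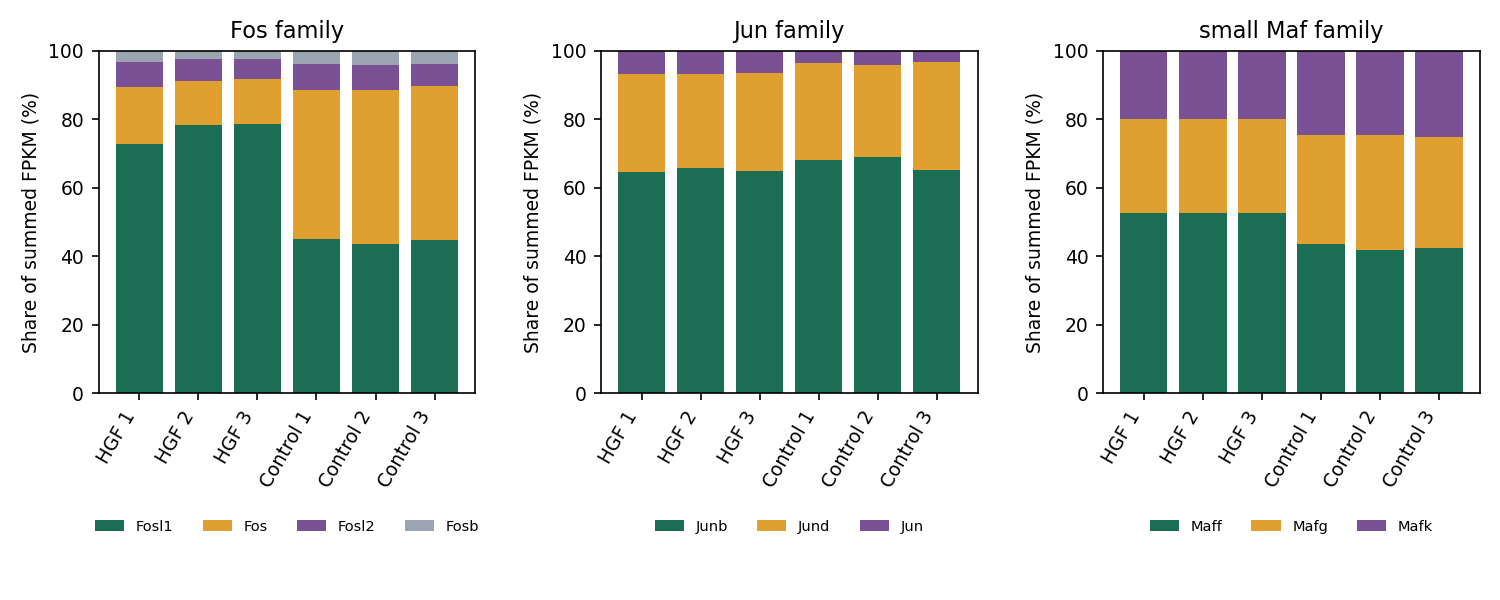
Share of each gene in the summed FPKM of its family (y axis, percent) in each library, HGF libraries left of controls, for the Fos, Jun and small Maf families. Fosl1 takes 72.7% to 78.7% of the Fos family with HGF and 43.6% to 45.1% in controls, while Junb stays the main Jun gene.

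Among the Jun genes, Jun rose and its more abundant relatives gave no call. Jun encodes c-Jun, the main transactivating partner of Fos proteins. Its FPKM was 17, 16.3 and 15.8 with HGF, against 9.39, 10.2 and 8.99 in controls, 1.84-fold higher in the fit (log2 0.88 ± 0.06, adjusted p = 1.64e-05). All HGF libraries lay above all controls. Jun (ENSMUSG00000052684, chromosome 4, 95049034 to 95052222) shares 689 bases with the antisense gene Junos, which had 142, 111 and 128 counts with HGF and 85, 55 and 93 in controls, far below the 1847 to 3886 counts of Jun.

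Junb, whose protein is a weaker activator and can oppose c-Jun, was the most abundant of the 10. Its FPKM was 164, 161 and 158 with HGF, against 175, 173 and 185 in controls. These deposited FPKM values do not overlap, whereas after TMM scaling the groups did, and the fitted log2 fold change was -0.05 with a 95% interval of -0.15 to 0.05 (adjusted p = 0.440). With libraries scaled by their totals alone it was -0.15 (adjusted p = 0.0207), and with limma on log2(FPKM + 1) -0.14 (adjusted p = 0.0178), so the call of Junb depends on the scaling; over all alternatives its adjusted p ran from 0.0178 to 0.904. Library totals moved the median of all tested genes by -0.11 on the log2 scale.

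Jund, a gene of resting cells whose product often restrains growth, had 72.8, 67.6 and 69.5 FPKM with HGF, against 73.1, 67.2 and 90.3 FPKM in controls. The highest value was in Control 3, the library with the skeletal muscle and macrophage transcripts. The log2 fold change was -0.04, with a 95% interval of -0.27 to 0.19 (adjusted p = 0.778). Without Control 3 it was 0.10 (adjusted p = 0.221), with the opposite sign and no call.

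Jun was a minor part of the Jun-family RNA in both groups. Its share of the summed FPKM of Jun, Junb and Jund was 6.71%, 6.65% and 6.49% with HGF, against 3.64%, 4.07% and 3.16% in controls. Junb made up 65.1% ± 0.576 with HGF and 67.4% ± 2.05 in controls, and Jund 28.3% ± 0.578 and 29.0% ± 2.49 (SD, n = 3 each). The difference in the share of Jun gave an exact two-sided permutation p of 0.10, the smallest possible here, and those of Junb and Jund gave 0.20 and 0.90. The log2 ratio of Jun to Fos was 0.65 ± 0.06 with HGF and -1.22 ± 0.10 in controls (exact permutation p = 0.10), so in every library Jun was above Fos with HGF and below it in controls.

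Atf3, a stress-induced bZIP factor that pairs with Jun proteins, had 3.16, 3.5 and 3.32 FPKM with HGF, against 3.83, 4.35 and 4.74 FPKM in controls. The groups did not overlap, but the difference missed the threshold (log2 -0.28, 95% interval -0.53 to -0.03, adjusted p = 0.0779). It passed with library totals (adjusted p = 0.0245), with limma on log2(FPKM + 1) (adjusted p = 0.0125) and without Control 1 (adjusted p = 0.0481), and over all alternatives its adjusted p ran from 0.0124 to 0.214. Atf3 had the lowest counts of the 10, 487 to 683 in a library.

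Both small Maf genes among the members were called higher, Maff clearly and Mafk by little. Maff encodes MafF, a small Maf protein induced by stress and cytokines. Its FPKM was 37.5, 35.2 and 35 with HGF, against 22.9, 21 and 21.6 in controls, 1.75-fold higher in the fit (log2 0.81 ± 0.05, adjusted p = 1.31e-05). The groups did not overlap. Mafk encodes MafK, a partner of NRF2 and BACH1, and had 14.2, 13.4 and 13.3 FPKM with HGF, against 13, 12.3 and 12.8 FPKM in controls. Its rise was 1.15-fold (log2 0.20 ± 0.05, adjusted p = 0.0177). The call of Mafk was lost with library totals (0.10, adjusted p = 0.163), with limma on log2(FPKM + 1) (0.09, adjusted p = 0.121) and without Control 2 (0.17, adjusted p = 0.0740), and over all alternatives its adjusted p ran from 0.0025 to 0.163. Mafg, the remaining small Maf gene, rose 1.2-fold (log2 0.26 ± 0.04, adjusted p = 0.00167). Maff made up 52.5%, 52.7% and 52.5% of the summed small Maf FPKM with HGF, against 43.6%, 41.9% and 42.3% in controls (exact permutation p = 0.10, the smallest possible).

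All 10 genes carry the bZIP transcription factor label in the deposited annotation, and 9 of the 10 have the position that GENCODE M21 gives on GRCm38 (Junb differs). They lie on 8 chromosomes, with Fosl2 and Mafk on chromosome 5 and Junb and Jund on chromosome 8. The Jun genes span 1668 to 3189 bases with 1 listed transcript each, whereas Atf3 spans 47744. In the deposited KEGG annotation 7 of them, all the Fos and Jun genes, share the term osteoclast differentiation.

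The genes whose pattern over the 6 libraries was most like that of a member were named by a fixed rule, as the 3 highest Pearson correlations of log2 CPM among 7132 genes whose higher group averaged 5 FPKM or more. For Fos these were Gadd45g (r = 0.9989), Wipi1 (0.9989) and Leng8 (0.9987). Gadd45g, a growth arrest gene, had a log2 fold change of -1.0 ± 0.05, close to that of Fos, and Wipi1 and Leng8 changed less, by -0.25 ± 0.04 and -0.24 ± 0.04. For Jun they were Odc1, the ornithine decarboxylase gene (0.9991), Ctc1 (0.9987) and Mmp19, a metalloproteinase gene (0.9985), with log2 fold changes of 0.41 ± 0.03, 0.47 ± 0.04 and 1.78 ± 0.10. For Fosl1 they were Mgst2 (0.9976), Pdia6 (0.9975) and Cstb (0.9975), each called higher at 0.47 ± 0.07, 0.45 ± 0.04 and 0.32 ± 0.05. These correlations describe 6 libraries in 2 groups and share the difference between the groups.

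Genes described as having AP-1 elements in their promoters or enhancers were higher with HGF in most cases. Of 27 tested, 22 were called higher (81.5%, beside 19.1% of all tested genes) and 0 lower (beside 19.3%), with a median log2 fold change of 0.81. The list was written with earlier results of these data known, so its count is a description. Mmp10 and Mmp13, a stromelysin and a collagenase, averaged 18.3 ± 1.82 and 6.86 ± 0.418 FPKM with HGF and 1.70 ± 0.122 and 1.16 ± 0.149 FPKM in controls. Areg, an EGF receptor ligand gene, averaged 55.8 ± 2.03 FPKM with HGF and 15.4 ± 0.369 FPKM in controls. The 5 that were not called include the EGF receptor ligand genes Hbegf and Ereg, named after their values were seen, with log2 fold changes of 0.03 ± 0.08 and 0.22 ± 0.10. The count of genes called higher was 20 to 23 over all alternatives, and that of genes called lower was 0 in each.

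The genes around AP-1 moved in both directions. Of 28 tested bZIP genes outside the members, the small Maf gene Mafg among them, 8 were higher and 3 lower. Of them 39.3% were called, beside 38.5% of all tested genes, with a median log2 fold change of -0.03. Bach1, a repressor that pairs with small Maf proteins, rose 1.35-fold (log2 0.44 ± 0.06, adjusted p = 4.85e-04), and Creb5 rose by 1.29 ± 0.11 at a level of 0.394 ± 0.0411 FPKM with HGF and 0.172 ± 0.00769 FPKM in controls. Creb3, a membrane-bound bZIP factor, fell to 16.7 ± 0.694 FPKM with HGF, against 24.2 ± 0.507 FPKM in controls. The balance of calls in this list turned over with the scaling, to 5 higher and 8 lower with library totals and 3 higher and 6 lower with limma on log2(FPKM + 1). DESeq2 called 7 higher and 5 lower, 5 were higher without HGF 2, and the median ran from -0.13 to 0.01 over all alternatives.

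Of 30 kinase and SRF, TCF or MEF2 genes that act on Fos and Jun, 9 were higher and 6 lower (50.0% called, beside 38.5% of all tested genes), with a median near 0 (-0.10 to 0.08 over all alternatives). Elk3, a TCF partner of serum response factor, rose by 0.56 ± 0.05 and Map2k6, an activator of p38 kinases, by 1.19 ± 0.07 on the log2 scale. Mapk3, which encodes ERK1, averaged 120 ± 3.92 FPKM with HGF and 97.8 ± 2.96 FPKM in controls. Rps6ka2, a ribosomal S6 kinase gene, rose by 0.55 ± 0.06. The balance of calls turned over here too, to 6 higher and 9 lower with library totals and with limma on log2(FPKM + 1), and 3 were lower without Control 1 or without Control 2.

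Among 15 genes for factors in the turnover of Fos-type RNAs or of Fos and Jun proteins, 7 were higher and 3 lower. Of them 66.7% were called, beside 38.5% of all tested genes, with a median log2 fold change of 0.11. Zfp36l2, which binds AU-rich elements and promotes RNA decay, averaged 57.1 ± 1.41 FPKM with HGF and 35.6 ± 0.959 FPKM in controls (log2 0.78 ± 0.04, adjusted p = 4.69e-06). Hnrnpd, the AU-rich element factor AUF1, rose by 0.40 ± 0.06, and the ubiquitin ligase gene Stub1 and the deadenylase gene Pan2 had log2 fold changes of -0.29 ± 0.04 and -0.42 ± 0.05. With library totals and with limma on log2(FPKM + 1) this split was 4 higher and 6 lower, with a median of 0.01. Without HGF 2 or without Control 1 it was 4 higher and 2 lower, and without Control 3 the median was 0.07.

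Other genes, listed here as immediate-early genes of serum response factor and its TCF partners, moved in both directions. Whether each is a target of serum response factor was not tested. Of 22 tested, 10 were higher and 7 lower (77.3% called, beside 38.5% of all tested genes; median 0.18). The median was 0.30 without HGF 3, 0.11 without Control 2, 0.08 with library totals and 0.01 with limma without the FPKM filter, while 7 to 11 were higher and 6 to 8 lower over all alternatives. Ier3 rose by 0.48 ± 0.04 on the log2 scale. Dusp1, a phosphatase gene of MAP kinases, averaged 10.9 ± 0.425 FPKM with HGF and 18.4 ± 0.137 FPKM in controls. Ccn1 and Ccn2, matricellular genes, had log2 fold changes of -1.12 ± 0.04 and -1.01 ± 0.07. Apart from Hbegf and Ereg, the genes named in these lists had adjusted p of 0.00167 or less.

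**Figure D5:**
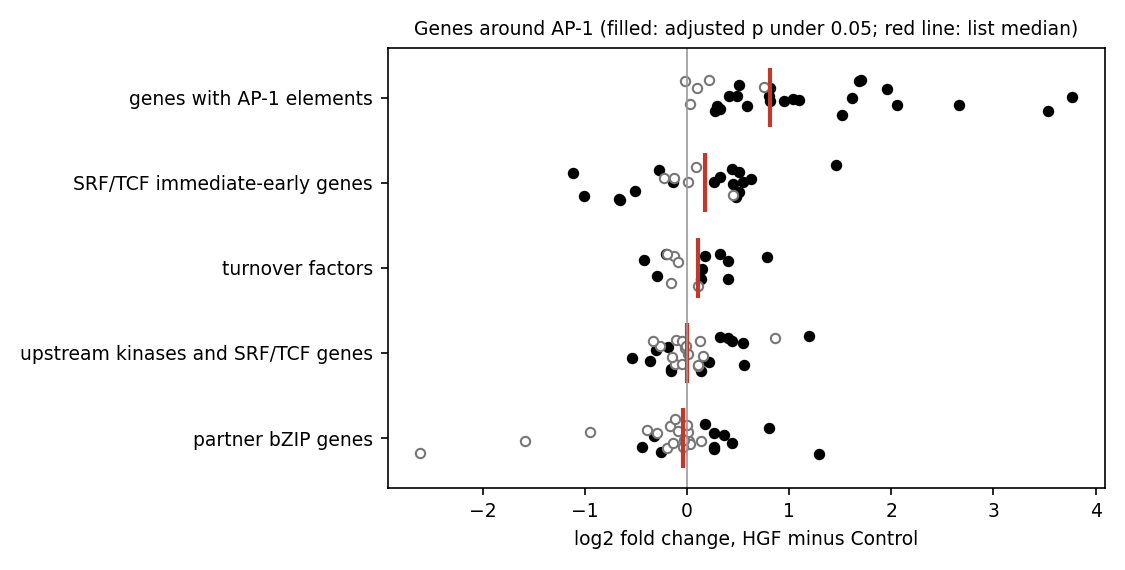
Log2 fold change, HGF minus control (x axis), of each tested gene in the 5 lists around AP-1; filled points passed adjusted p 0.05 and the red line is the list median. The median is 0.81 for the genes with AP-1 elements, and the other 4 lists lie around 0, with medians of -0.03 to 0.18.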

How the data were processed

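The deposited table of the authors gives, per the file headers, whole-number counts and FPKM values (scaled for transcript length and depth) for each gene in each library. Bowtie 0.12.2, HISAT2 2.0, StringTie 1.3.0 and the build mm8 stand in the submitters' processing notes without roles; for annotation and strand use, the sources used here give nothing. Of the identifiers shared with GENCODE M21 (GRCm38), 86.8% carry its position exactly. Groups came from the sample titles.

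Genes kept by filterByExpr were scaled with TMM (factors 0.963 to 1.04) and tested two-sided with edgeR 4.0.16 (quasi-likelihood, R 4.3.3); p-values of all 17322 genes were adjusted by Benjamini-Hochberg and called at 0.05. The standard error is the log2 fold change over the root of F. FPKM lack the TMM scaling, so FPKM ratios of HGF over control are below the fitted folds. Shares and ratios were tested by exact permutation over libraries. The fits were tested on simulated data in which few genes changed, in random directions. The simulation therefore cannot judge the choice of scaling for these libraries. Alternatives used DESeq2 1.42.0, limma 3.58.1 on log2(FPKM + pseudocount), with pseudocounts of 1 and 0.1 and a minimum FPKM of 1 in 3 libraries, and other filters and scalings. Fold changes on the log2(FPKM + 1) scale understate the change of low genes. Libraries of a group correlated at 0.971 to 0.987.

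The members and all lists were chosen with earlier results of these data known. Named genes are the 10 members, from each list up to 4 called genes of smallest p, and the 3 genes most like Fos, Jun and Fosl1; a gene that this rule names is not reported here. Promoter sequences are RefSeq's (GRCm38.p6).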

Additional observations from a re-analysis of the deposited data

How the results depend on the processing

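Over 15 alternatives for each of the 10 genes, 135 of 150 values kept direction and side of the threshold, among them all of Fos, Fosb, Fosl1, Fosl2, Jun and Maff. The exceptions were Junb, Atf3, Mafk and Jund. Jund reversed without Control 3, to 0.10 (range -0.14 to 0.10 over the libraries left out). With library totals in place of TMM, or with limma on log2(FPKM + 1), on log2(FPKM + 0.1) or without the FPKM filter, 3 of the 10 genes were called lower (Fos, Junb and Atf3) in place of 1. In the limma fits 2061, 2050 and 2065 genes were called higher in place of 3316, and 32.7% of calls were higher with either pseudocount and 35% without the filter, in place of 49.8%. With library totals 32.3% were. Leaving out each library gave 2553 to 3174 genes higher and 2340 to 3054 lower, with 4 to 5 of the 10 higher and 1 to 2 lower (2 without Control 1). DESeq2, the fit without a count filter, scaling by median ratios and counts divided by 4 changed none of these counts by over 1.5 times. On TMM-scaled CPM, not divided by length, the share differences (HGF minus control) were 26.5 percentage points for Fosl1, -23.8 for Fos and 4.99 for Jun, against 32.0, -30.2 and 2.99 on FPKM. Replicate numbers did not pair the libraries (correlations of 0.0592, -0.03 and 0.0377 for same-numbered libraries), and with them as a block 3406 genes were higher and 3440 lower, with 5 and 1 of the 10. Depth limits the precision of low genes, and all 10 genes had at least 487 counts in every library.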
